A study of Mus musculus with 20 samples.

Results

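The 50 genes described here encode the machinery of DNA replication and of mitosis. Of these, 25 act in S phase or in the entry into it (the S part) and 25 act in mitosis (the mitotic part). They were taken by symbol from known cell cycle genes, and all 50 were among the 23329 symbols of the count table. All 50 also passed the filter on low counts, which left 15363 genes for testing, and each had at least 1 count in every one of the 20 libraries. In microglia of 2 mouse glioma models nearly all of them were higher than in microglia of normal brain, the mitotic part by more than the S part. In macrophages of the same tumours that came from the bone marrow, most were higher than in blood monocytes.

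The libraries hold polyadenylated RNA of sorted myeloid cells from C57BL/6 mice and fall into 6 groups. GL261 BMDM and GL261 MG (n = 3 each) are bone-marrow-derived macrophages and microglia, the resident macrophages of the brain, from tumours of GL261, a mouse glioma cell line. GEMM BMDM and GEMM MG (n = 3 each) are the same cell types from a genetically engineered mouse model. Blood monocytes with high Ly6C (n = 5) and microglia of normal brain, here called normal MG (n = 3), are the groups without tumour. For the GEMM, DF1 cells (a chicken fibroblast line) carrying RCAS-PDGFB-HA and RCAS:shP53 were injected into the frontal cortex of Flt3:Cre Rosa26:mTmG mice at 6 weeks of age. These vectors deliver the growth factor PDGFB with an HA tag and a short hairpin against p53. Cre driven by Flt3, a gene of blood progenitors, switches the mTmG reporter from red to green in their descendants. The described sort took cells that were CD45+ CD11b+ Ly6C- Ly6G-, with MG red and not green and BMDM green and not red. That protocol stands with every library but describes the GEMM only. The sources used here do not give how the GL261 tumours were made, whether their mice carried the reporter, or how normal MG and monocytes were sorted. A number shared by the titles of an MG and a BMDM library was read as 1 tumour.

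A dividing cell first licenses its replication origins by loading the Mcm2 to Mcm7 helicase, with the help of Cdc6 and Cdt1, and then fires them in S phase with Cdc45 and the GINS complex. E2F transcription factors switch on this programme when cyclin and kinase activity inactivates the retinoblastoma protein. The mitotic programme comes later, with Foxm1, B-Myb and the MuvB complex acting at promoters that carry a CHR element, often with CCAAT boxes that bind NF-Y. In resting cells the DREAM complex represses many of these same genes. Microglia in the healthy adult brain divide rarely and blood monocytes are mostly out of the cycle, while macrophages in tissue can proliferate locally.

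Promoters of the 2 parts are shown because they hold different short motifs, a description with no test. Windows of 250 bases before to 50 bases after the annotated gene start (RefSeq, GRCm38.p6) were found for 20 of the 25 genes of each part. They were searched on both strands for the E2F motif written as TTCCCGC, written as TTCGCGC, written as TTGCCGC or written as TTGGCGC, for the CHR motif written as TTTGAA or written as TTCGAA, and for CCAAT. The last E2F form overlaps a CCAAT match of the other strand where an A stands before it. An E2F match stood in the windows of 13 S part genes (65.0%) and of 4 mitotic genes (20%), against 10.9% of all 27025 genes with a window. A CHR match stood in 3 S part genes (15.0%), 16 mitotic genes (80.0%) and 21.7% of all genes. Both CHR and CCAAT stood in 3 S part genes (15.0%), 16 mitotic genes (80.0%) and 9.65% of all genes. In 15 mitotic genes (75.0%) a CHR match began within 50 bases of the start, compared with 1 S part gene (5.0%) and 6.12% of all genes. These are matches of letters and no binding was measured. The 5 promoters shown are from genes with a window that were called in the same direction in the most comparisons below. They are 2 of the S part and 3 of the mitotic part, and ties, as with Cdc20 and Cenpf, went to the smaller p in GEMM MG against normal MG. The sequences run 5′ to 3′ on the gene's strand, with each match in capitals. They lie at chr11:98907901-98908200 on the plus strand (Cdc6), chrX:93632106-93632405 on the minus strand (Pola1), chr5:30666636-30666935 on the plus strand (Cenpa), chr2:172370521-172370820 on the minus strand (Aurka) and chr7:80294201-80294500 on the plus strand (Prc1).
Cdc6: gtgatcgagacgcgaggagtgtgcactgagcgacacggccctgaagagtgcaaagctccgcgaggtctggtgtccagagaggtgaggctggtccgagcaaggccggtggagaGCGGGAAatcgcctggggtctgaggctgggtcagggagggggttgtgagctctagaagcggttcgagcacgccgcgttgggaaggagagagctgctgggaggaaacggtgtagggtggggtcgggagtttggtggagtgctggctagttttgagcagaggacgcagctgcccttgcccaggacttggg
Pola1: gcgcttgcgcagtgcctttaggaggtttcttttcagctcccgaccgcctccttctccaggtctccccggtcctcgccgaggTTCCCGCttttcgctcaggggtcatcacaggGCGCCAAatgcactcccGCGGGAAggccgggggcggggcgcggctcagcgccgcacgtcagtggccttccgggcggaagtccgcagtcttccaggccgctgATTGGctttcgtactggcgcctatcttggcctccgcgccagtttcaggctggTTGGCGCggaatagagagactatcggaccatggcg
Cenpa: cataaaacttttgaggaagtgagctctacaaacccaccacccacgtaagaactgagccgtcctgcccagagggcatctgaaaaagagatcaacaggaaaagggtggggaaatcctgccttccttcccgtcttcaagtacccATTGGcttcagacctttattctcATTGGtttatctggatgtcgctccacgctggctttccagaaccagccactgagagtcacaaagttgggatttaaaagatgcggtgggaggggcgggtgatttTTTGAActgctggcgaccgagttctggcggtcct
Aurka: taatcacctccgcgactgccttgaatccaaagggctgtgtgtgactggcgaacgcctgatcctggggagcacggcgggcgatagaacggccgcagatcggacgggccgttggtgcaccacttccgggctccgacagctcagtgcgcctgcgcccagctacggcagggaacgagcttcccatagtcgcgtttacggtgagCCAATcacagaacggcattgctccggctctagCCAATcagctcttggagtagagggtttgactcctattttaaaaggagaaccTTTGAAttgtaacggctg
Prc1: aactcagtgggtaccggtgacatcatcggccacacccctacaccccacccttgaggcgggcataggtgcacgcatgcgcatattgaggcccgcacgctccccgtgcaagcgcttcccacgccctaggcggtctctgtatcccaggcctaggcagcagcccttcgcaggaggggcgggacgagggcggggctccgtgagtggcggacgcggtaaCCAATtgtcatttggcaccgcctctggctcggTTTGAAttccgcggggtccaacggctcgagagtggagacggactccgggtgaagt
The Cdc6 window held 1 E2F match and the Pola1 window 4 E2F matches and 1 CCAAT match. In each of the Cenpa, Aurka and Prc1 windows there was 1 CHR match, which began 16 and 32 bases after the start in Cenpa and Aurka and at -5 in Prc1. Cenpa and Aurka had 2 CCAAT matches each and Prc1 had 1. E2f1, the next S part gene by the same rule, had none of the 3 motifs in its window and is not shown. The windows of E2f1 and of Cdc6 lie wholly inside these genes as GENCODE annotates them, since RefSeq places their starts further downstream.

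**Figure D1:**
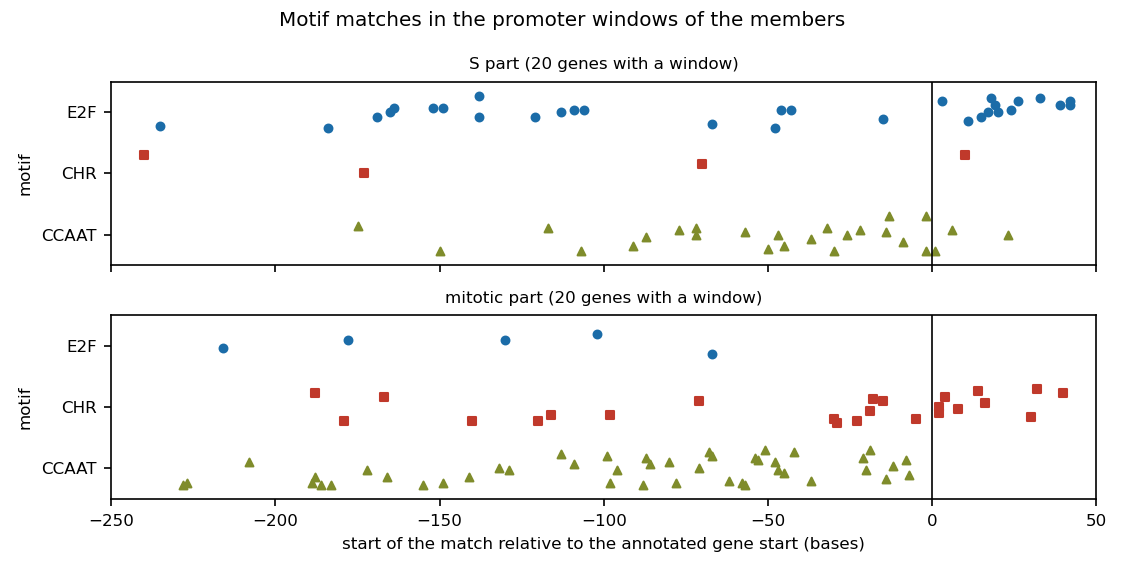
Position of each E2F, CHR and CCAAT match (rows) in the promoter windows of the S part (upper panel) and the mitotic part (lower panel), in bases from the annotated gene start, with 20 genes per part and points spread vertically for legibility. The S part had 31 E2F and 4 CHR matches, and the mitotic part 5 E2F and 24 CHR matches, whose median position was -18.5. These counts are over 24 windows of the S part and 21 of the mitotic part, since some genes had several windows. The windows of Prc1 overlap, so its CHR site was counted in each.

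Total counts were 18113450 to 22088979 in the GL261 libraries, 23064781 to 36297826 in the GEMM libraries, 5077787 to 7801073 in monocytes and 26421803 to 30391652 in normal MG, so low genes are least precise in monocytes. The unit CPM below means a read count relative to its library's TMM-scaled total, on edgeR's usual scale. A gene is called when the adjusted p of edgeR's quasi-likelihood test over all 15363 genes is under 0.05, and log2 fold changes are given ± SE. Monocytes alone had Xist at 142 to 645 CPM and Ddx3y at 2.76 CPM or less, so comparisons with them also compare female with male RNA. Of the defining markers, the microglial gene P2ry12 was at 52.1 to 73.9 CPM in GL261 BMDM, 139 to 642 in GL261 MG, 167 to 321 in GEMM BMDM, 1050 to 2240 in GEMM MG, 70.6 to 155 in monocytes and 5770 to 6770 in normal MG. The lowest GL261 MG library lay within the monocyte range and below all GEMM BMDM libraries, so P2ry12 does not bear out the MG label there. That library, of tumour 80769, also had a microglial marker sum of 1930 CPM, below 2820 to 5780 CPM in GEMM BMDM and above 604 to 1420 CPM in GL261 BMDM. Sall1, another microglial marker, did not fall below 28.2 CPM in any GL261 MG library. Its highest value was 1.12 CPM among GL261 BMDM, 0.403 CPM among monocytes and 30.6 CPM among GEMM BMDM. Ccr2, a marker of monocytes and their descendants, reached at most 18.3 CPM among GL261 MG. Its lowest value was 89.3 CPM among GL261 BMDM and 1030 CPM among monocytes. Reads of Rn45s, a ribosomal RNA precursor, took 1.05 to 14.3% of counts in monocytes and at most 0.614% in any other library, and their part in the comparisons with monocytes was not tested. Markers of oligodendrocyte precursors or glioma cells were also present, all 10 listed genes being in the table. Their sum was 225 to 457 CPM in GL261 BMDM, 548 to 1080 in GL261 MG, 18.9 to 133 in GEMM BMDM, 194 to 287 in GEMM MG, 0.377 to 5.07 in monocytes and 9.57 to 29.2 in normal MG. Of these markers Sox2 was at 0 in all 5 monocyte libraries. Exons of 17 members overlap another gene, most in Gins2 (67.3% of its exon bases, with Gse1), Kif20a (29.3%, Cdc23), Ube2c (22.8%, Tnnc2) and Ccne2 (17.4%, Ints8), and since the strand setting of the counting is not given, their values are uncertain.

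Summed over its 25 genes, the S part averaged 1504 ± 304 CPM in GL261 BMDM, 1560 ± 337 in GL261 MG, 1136 ± 246 in GEMM BMDM, 1298 ± 81.1 in GEMM MG, 279.3 ± 61.7 in monocytes and 376.2 ± 14 in normal MG (SD). The mitotic part averaged 1589 ± 147, 2126 ± 536, 766.6 ± 220, 1180 ± 89.5, 272.6 ± 158 and 60.3 ± 2.02 CPM in the same groups. The 4 tumour groups overlapped in their S sums, and each tumour library was above all libraries of normal MG and monocytes in both sums. Monocytes lay above normal MG in the mitotic part without overlap, whereas in the S part they were lower on average and overlapped. Normal MG had S sums of 361.5 to 389.5 CPM and mitotic sums of 58.7 to 62.6 CPM, a mitotic level of 0.160 ± 0.00208 times the S level in each library. That ratio was 1.08 ± 0.193 in GL261 BMDM, 1.36 ± 0.0513 in GL261 MG, 0.669 ± 0.0599 in GEMM BMDM, 0.909 ± 0.054 in GEMM MG and 0.919 ± 0.325 in monocytes. Per kilobase of exon, the median member of the S part was at 1.65 CPM and of the mitotic part at 0.484 CPM in normal MG. In GL261 MG the same medians were 10.6 and 16.8 CPM per kilobase. Lengths are of all GENCODE exons of a gene merged (11.0 kb for Rrm1) and not of a single transcript. Levels per kilobase and their ranks are therefore approximate. Pcna, the clamp that holds DNA polymerases on their template, had the highest level per kilobase of all members in GEMM BMDM (48.0), GEMM MG (61.3), monocytes (16.8) and normal MG (37.9). Cdc20, which activates the anaphase promoting complex, was the highest in GL261 BMDM (58.5) and GL261 MG (84.2). In bulk RNA, fewer cells in cycle and less of these transcripts per cell cannot be told apart.

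**Figure D2:**
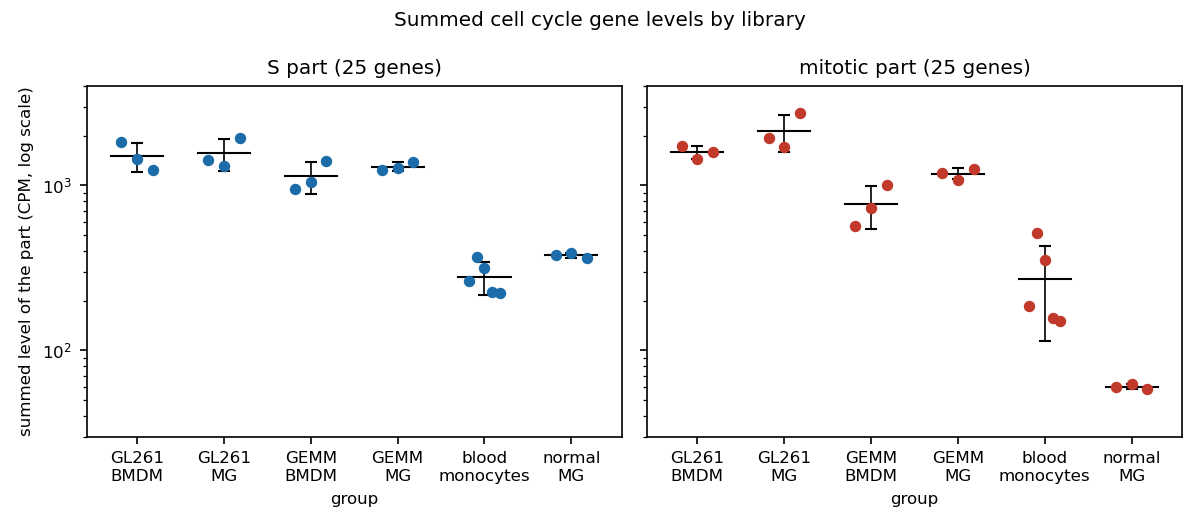
Summed level of the S part (left) and the mitotic part (right) in CPM on a log axis, 1 point per library, with the group mean as a line and the SD as bars. All 12 tumour libraries lie above the 8 libraries without tumour, and normal MG lie at 58.7 to 62.6 CPM in the mitotic part and at 361.5 to 389.5 CPM in the S part.

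Tumour microglia were set against normal MG to ask how the programme differs in microglia of a glioma. In GL261 MG 24 of the 25 S part genes were higher, beside 30.6% of all genes tested, and in GEMM MG all 25 were, beside 23%. Median log2 fold changes were 3.07 in GL261 MG and 2.46 in GEMM MG, against 0.01 and -0.02 over all genes. Both comparisons share the 3 normal libraries.

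Within the S part, the 4 genes of nucleotide supply and the 4 regulators of S entry had the highest group medians in GEMM MG, at 3.25 and 4.09 on the log2 scale. Rrm2, the regulated subunit of ribonucleotide reductase, was at 97.7, 71.8 and 125.8 CPM in GL261 MG, at 83.7, 118.2 and 94.4 CPM in GEMM MG and at 3.23, 3.02 and 2.88 CPM in normal MG. No tumour library came near a normal one, and the log2 fold changes were 5.01 ± 0.66 (adjusted p = 5.45e-06) in GL261 MG and 5.02 ± 0.66 (adjusted p = 1.12e-05) in GEMM MG. Tk1, the thymidine kinase of dividing cells, was at 33.9, 19.6 and 41.5 CPM in GL261 MG, 25.1, 28.4 and 28.0 CPM in GEMM MG and 1.18, 1.14 and 0.926 CPM in normal MG. Its log2 fold changes were 4.87 ± 0.28 and 4.65 ± 0.28. E2f1, a transcription factor of S entry, was at 34.5, 22.5 and 38.3 CPM in GL261 MG, 28.8, 33.6 and 31.8 CPM in GEMM MG and 1.38, 1.41 and 2.78 CPM in normal MG. Its log2 fold changes were 4.09 ± 0.28 in GL261 MG and 4.07 ± 0.28 in GEMM MG. Ccne1 and Uhrf1, which encode cyclin E1 and a factor that keeps DNA methylation through replication, were higher by 4.25 ± 0.40 and 4.83 ± 0.44 in GL261 MG and by 4.10 ± 0.40 and 4.14 ± 0.43 in GEMM MG.

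The 11 licensing and helicase genes spanned a wide range in both models. Mcm5 was at 104.4, 97.5 and 156.8 CPM in GL261 MG, 77.6, 75.1 and 102.0 CPM in GEMM MG and 9.71, 11.1 and 11.3 CPM in normal MG, with log2 fold changes of 3.48 ± 0.30 and 2.98 ± 0.29. Mcm3, another subunit of the same helicase, was at 141.1, 123.5 and 153.8 CPM in GL261 MG, 156.8, 133.7 and 185.1 CPM in GEMM MG and 77.5, 90.5 and 79.2 CPM in normal MG. Its log2 fold changes were 0.76 ± 0.19 (adjusted p = 0.00258) and 0.94 ± 0.19 (adjusted p = 0.000727), so that subunits of the helicase were raised by unequal amounts. Pcna was at 106.7, 110.3 and 127.9 CPM in GL261 MG, 143.3, 148.3 and 149.5 CPM in GEMM MG and 107.1, 84.0 and 81.5 CPM in normal MG. GL261 MG overlapped normal MG and were not called (log2 fold change 0.34 ± 0.16, adjusted p = 0.0826), whereas GEMM MG were (0.69 ± 0.16, adjusted p = 0.00223). With the size factors of DESeq2 Pcna was called in GL261 MG too (adjusted p = 0.0429 in edgeR and 0.0315 in DESeq2).

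All 25 mitotic genes were higher in GL261 MG and all 25 in GEMM MG, with median log2 fold changes of 5.16 and 4.39. No mitotic gene overlapped between tumour and normal MG in either model, as was true in this direction of 33.4% of all genes in GL261 MG and 30.3% in GEMM MG. The lowest log2 fold changes were 4.01 ± 0.54 for Kif11, a spindle motor, in GL261 MG and 2.84 ± 0.51 for Foxm1, a transcription factor of mitotic genes, in GEMM MG. Birc5, the survivin subunit of the chromosomal passenger complex, was at 66.7, 59.7 and 100.6 CPM in GL261 MG, 38.3, 39.5 and 40.6 CPM in GEMM MG and 0.705, 0.470 and 0.754 CPM in normal MG. Its log2 fold changes, 6.86 ± 0.63 (adjusted p = 1.2e-07) and 5.92 ± 0.61 (adjusted p = 9.9e-07), were the highest of all members in both models. Ccnb1, the mitotic cyclin B1, was at 101.0, 74.3 and 148.5 CPM in GL261 MG, 69.0, 62.0 and 78.1 CPM in GEMM MG and 1.51, 2.27 and 1.58 CPM in normal MG. Log2 fold changes of Ccnb1 were 5.92 ± 0.71 and 5.29 ± 0.69. Mki67, which encodes the proliferation antigen Ki-67, was at 110.3, 84.2 and 102.1 CPM in GL261 MG, 79.7, 75.4 and 83.7 CPM in GEMM MG and 4.20, 2.86 and 4.05 CPM in normal MG. It was higher by 4.73 ± 0.36 and 4.42 ± 0.35 on the log2 scale. Cdk1, the kinase that cyclin B binds, was higher by 4.52 ± 0.65 and 3.93 ± 0.64.

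Markers of glioma cells moved in the same direction, with Olig2 at 62.1 to 101 CPM in GL261 MG, 7.88 to 10.7 CPM in GEMM MG and 0 to 0.235 CPM in normal MG, and their part in these results was not tested. The sum of the 6 microglial markers was 1930 to 7230 CPM in GL261 MG, 11200 to 18200 CPM in GEMM MG and 28900 to 32700 CPM in normal MG. GL261 MG of tumour 80769 had the lowest microglial sum, the highest glioma marker sum and the highest mitotic sum (2729 CPM, the other 2 being at 1949 and 1701). Its sum of general myeloid markers, 1970 CPM, was the lowest of all libraries, with 6290 and 4670 CPM in GL261 MG of tumours 80766 and 80767. The part of this in the result was not tested. With any single library left out, that of tumour 80769 included, 24 to 25 S part genes and all 25 mitotic genes were called.

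**Figure D3:**
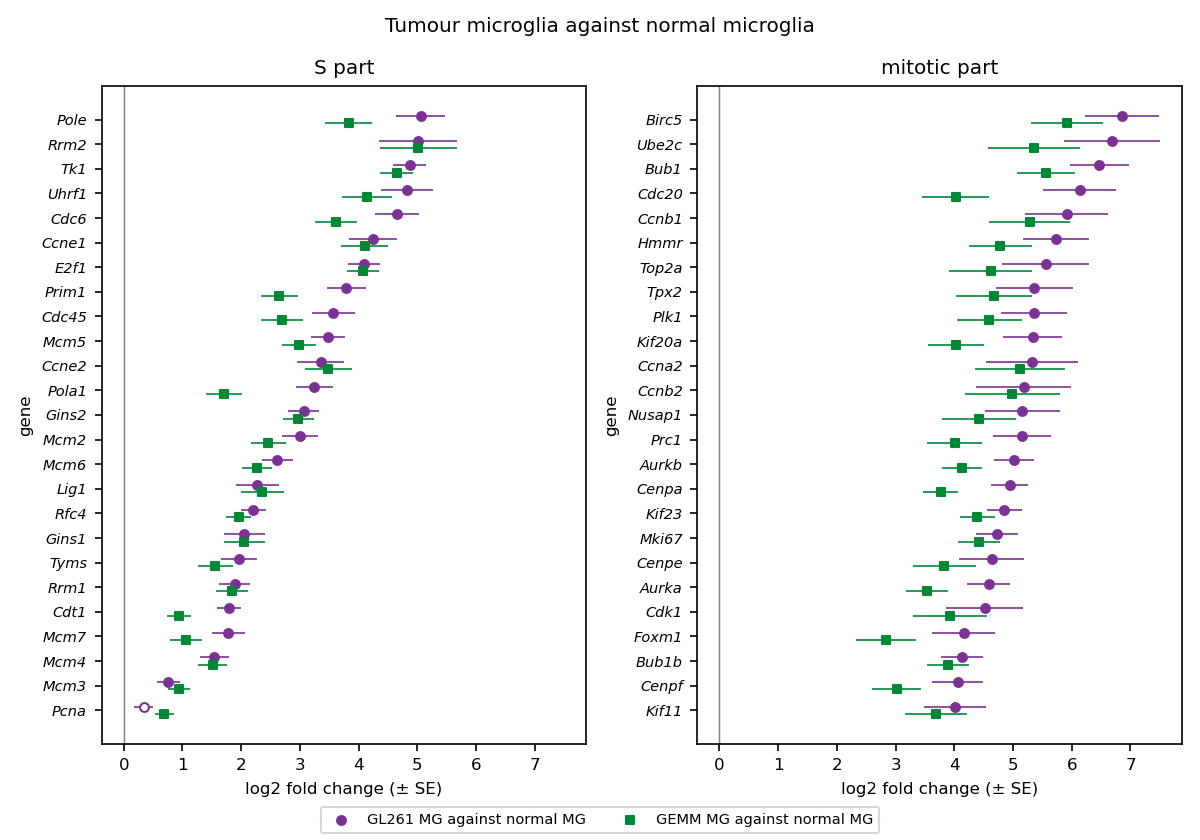
Log2 fold change ± SE of each member in GL261 MG (purple circles) and GEMM MG (green squares) against normal MG, with the S part on the left and the mitotic part on the right. Open symbols did not pass the test, which applies to Pcna in GL261 MG, and all mitotic genes lie at 2.84 or above.

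BMDM were set against blood monocytes, the circulating cells they descend from. Of the S part, all 25 genes were higher in GL261 BMDM, beside 34.1% of all genes tested, and 23 in GEMM BMDM, beside 31.6%. The mitotic part had 23 genes higher in GL261 BMDM, and 22 higher and 1 lower in GEMM BMDM, beside 25.7% of all genes lower there. The S part had median log2 fold changes of 2.60 (GL261 BMDM) and 2.25 (GEMM BMDM) and the mitotic part of 3.15 and 2.00, where all genes had 0.06 and 0.08. With the size factors of DESeq2 the median of all genes in GEMM BMDM shifted by -0.11, with no change in the direction of any member called. Both comparisons share the 5 monocyte libraries.

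Most replication genes were low in monocytes, whose libraries lay apart from BMDM. Prim1, the primase subunit that makes the first RNA of each new strand, was at 38.5, 39.2 and 26.9 CPM in GL261 BMDM, 16.2, 19.5 and 27.4 CPM in GEMM BMDM and 1.24 to 4.57 CPM in monocytes. Its log2 fold changes were 3.68 ± 0.29 (adjusted p = 9.16e-09) and 2.95 ± 0.29 (adjusted p = 1.48e-07). Mcm3 was at 193.8, 162.2 and 103.3 CPM in GL261 BMDM, 125.3, 122.7 and 163.2 CPM in GEMM BMDM and 18.6, 22.8, 23.1, 17.7 and 20.6 CPM in monocytes. In contrast to microglia, where it was among the members that changed least, Mcm3 was higher by 2.89 ± 0.17 and 2.73 ± 0.17 in BMDM. Pcna was higher by 1.47 ± 0.14 in GL261 BMDM and 1.52 ± 0.14 in GEMM BMDM. The licensing factor Cdt1 was at 26.2, 33.3 and 33.3 CPM in GL261 BMDM, 13.4, 14.7 and 19.0 CPM in GEMM BMDM and 18.6, 18.4, 16.9, 12.6 and 12.4 CPM in monocytes. GEMM BMDM lay within the range of monocytes or just above it and were not called (log2 fold change -0.01 ± 0.18, adjusted p = 0.953), while GL261 BMDM were (0.96 ± 0.18, adjusted p = 0.000133). E2f1, at 18.6 to 27.1 CPM in monocytes, was not called in GEMM BMDM either (0.41 ± 0.21, adjusted p = 0.112).

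In the mitotic part, Ccnb1 had the highest log2 fold change in both models, 4.41 ± 0.56 (adjusted p = 2.55e-06) in GL261 BMDM and 3.21 ± 0.55 (adjusted p = 8.63e-05) in GEMM BMDM. It was at 82.7, 64.2 and 103.9 CPM in GL261 BMDM, 28.9, 34.8 and 45.2 CPM in GEMM BMDM and 1.00, 11.2, 5.78, 0.825 and 0.188 CPM in monocytes, whose libraries varied widely. A few mitotic genes were high in monocytes. Kif23, a motor of the central spindle in cytokinesis, was at 41.9, 35.4 and 30.1 CPM in GL261 BMDM, 18.2, 27.1 and 31.4 CPM in GEMM BMDM and 71.6, 50.3, 45.5, 33.0 and 33.4 CPM in monocytes. It was lower in GEMM BMDM than in monocytes, with no overlap (log2 fold change -0.87 ± 0.23, adjusted p = 0.00365), and was not called in GL261 BMDM (-0.39 ± 0.23, adjusted p = 0.142). Mki67 was at 105.2, 83.0 and 60.8 CPM in GL261 BMDM, 40.2, 55.9 and 78.1 CPM in GEMM BMDM and 34.9, 95.4, 69.7, 43.7 and 52.2 CPM in monocytes. Both tumour groups overlapped monocytes in Mki67, with log2 fold changes of 0.49 ± 0.27 (adjusted p = 0.122) and -0.03 ± 0.27 (adjusted p = 0.937). Aurkb, the kinase of the chromosomal passenger complex, was called in GL261 BMDM (1.44 ± 0.26, adjusted p = 0.000103) and not in GEMM BMDM (0.41 ± 0.26, adjusted p = 0.182).

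Monocyte libraries 64818 and 64819 stood apart, with mitotic sums of 513.5 and 354.5 CPM against 151.2 to 187 CPM in the other 3. They also had the highest neutrophil marker sums, 19300 and 21600 CPM against 1130 to 6880, and 64818 had the highest sum of granulocyte and monocyte progenitor markers, 397 CPM against 8.67 to 57.4. The part of these cells in the result was not tested. Without both libraries, a comparison added after the values were seen, 25 S part and 24 mitotic genes were called in GL261 BMDM and 23 and 24 in GEMM BMDM. The calls gained were Mki67 in GL261 BMDM (0.93, adjusted p = 0.00395) and Aurkb in GEMM BMDM (0.80, adjusted p = 0.0108). Glioma marker sums were 225 to 457 CPM in GL261 BMDM, 18.9 to 133 CPM in GEMM BMDM and 0.377 to 5.07 CPM in monocytes, and their part in the result was not tested. In GEMM BMDM of tumours 68702, BB30101 and BB30105 the glioma marker sums were 97.4, 18.9 and 133 CPM. The mitotic sums of the same libraries were 568.3, 728.5 and 1003 CPM.

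**Figure D4:**
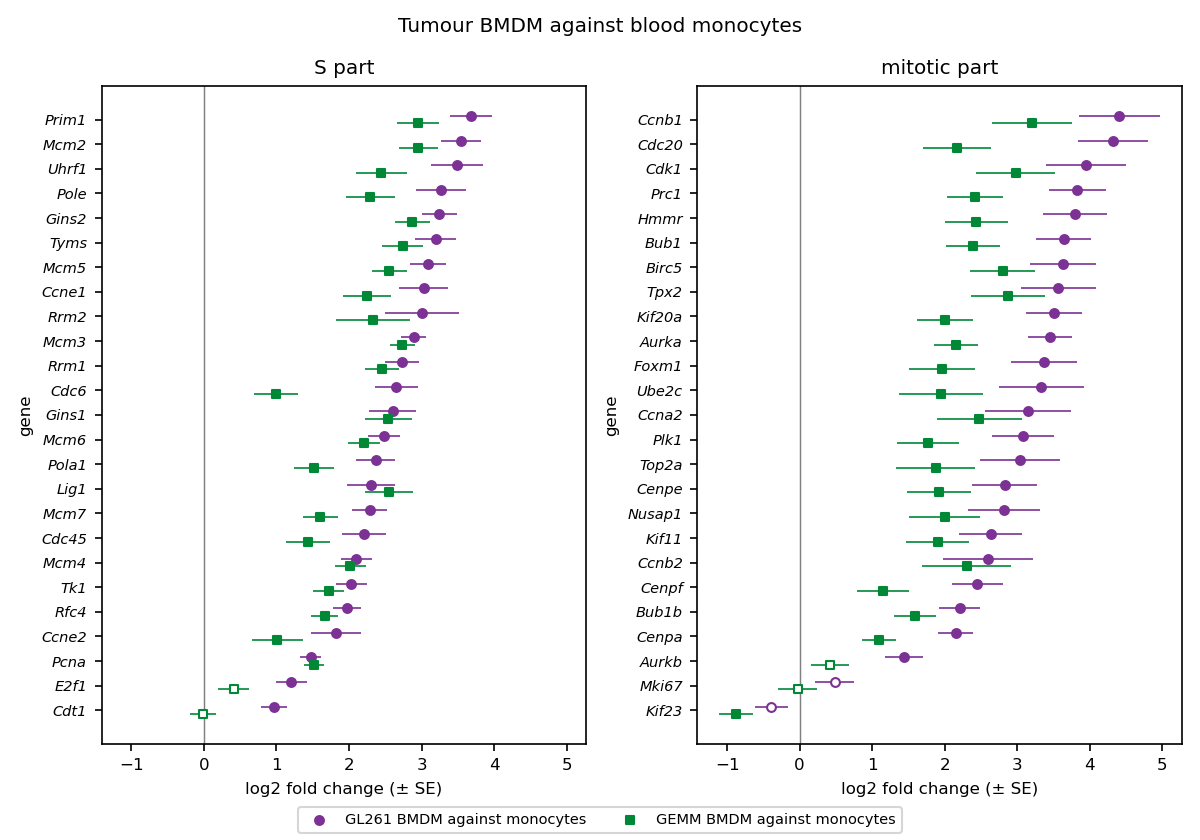
Log2 fold change ± SE of each member in GL261 BMDM (purple circles) and GEMM BMDM (green squares) against blood monocytes, with the S part on the left and the mitotic part on the right. Open symbols did not pass the test, and Kif23 in GEMM BMDM (-0.87) is the filled symbol below 0.

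Between BMDM and MG of 1 tumour model few S part genes were called, and nearly all mitotic genes had negative fold changes, of which some were called in certain fits. Without regard to the tumour of origin, 2 S part genes were higher and no mitotic gene was called in GL261 BMDM against GL261 MG, beside 10.7% of all genes higher and 17.5% called in either direction. In GEMM BMDM against GEMM MG 1 S part gene was lower and no mitotic gene was called, beside 8.1% of all genes lower and 20.8% called in either direction. At an unadjusted p under 0.05, 0 mitotic genes differed in GL261 and 3 in GEMM, beside 32% and 32.9% of all genes. A fit of only the 2 GEMM groups, without the block, called 6 mitotic genes, all lower in BMDM, beside 1174 of all 15363 genes lower. A fit with the tumour as a replicate block used the tumour libraries only, while the first fit above also took in monocytes and normal MG. Fitted with the block, 1 S part gene was higher and 3 mitotic genes were lower in GL261 BMDM. Its calls in GEMM BMDM were 3 S part and 14 mitotic genes, all lower. In that fit, of all genes tested, 12.6% had higher and 7.78% lower levels in GL261 BMDM, and 9.48% had lower levels in GEMM BMDM.

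Cdk1 showed the pattern in both models. It was at 73.4, 67.5 and 86.0 CPM in GL261 BMDM and 108.1, 102.2 and 150.2 CPM in GL261 MG of tumours 80766, 80767 and 80769. In tumours 68702, BB30101 and BB30105 it was at 30.3, 33.6 and 52.2 CPM in GEMM BMDM and 82.0, 74.4 and 83.2 CPM in GEMM MG. Every BMDM library lay below every MG library of its model. With the tumour as a block the log2 fold change was -0.65 ± 0.15 (adjusted p = 0.0202) in GL261 and -1.08 ± 0.15 (adjusted p = 0.00223) in GEMM. In the fit of all libraries without the block it was -0.67 ± 0.56 (adjusted p = 0.432) and -1.04 ± 0.56 (adjusted p = 0.209). A fit of only the GEMM groups, also without the block, gave -1.05 (adjusted p = 0.0101). The blocked calls in GL261 were Cdk1, the kinetochore motor Cenpe (-0.49 ± 0.15, adjusted p = 0.0482) and the ubiquitin-conjugating enzyme Ube2c (-0.57 ± 0.17, adjusted p = 0.0472).

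In GEMM the 14 blocked calls covered the cyclins and their kinase (Ccna2, Ccnb1 and Cdk1), mitotic kinases and the checkpoint gene Bub1 (with Aurka and Plk1), both anaphase promoting genes (Cdc20 and Ube2c), centromere genes (Cenpe and Cenpf), spindle genes (Hmmr and Prc1), and Top2a and Foxm1. Ccnb1 was at 28.9, 34.8 and 45.2 CPM in GEMM BMDM and 69.0, 62.0 and 78.1 CPM in GEMM MG, a blocked log2 fold change of -0.96 ± 0.13 (adjusted p = 0.00187). Without the block it was -0.94 ± 0.56 (adjusted p = 0.259) in the fit of all libraries and -0.95 (adjusted p = 0.0101) in that of only the GEMM groups. The blocked fit and the fit of all libraries differ in their libraries as well as in the block. All 25 mitotic genes were lower in BMDM in each of the 3 GEMM tumours, and 16 of 25 were in each of the 3 GL261 tumours, beside 29.1% and 29.5% of all genes. Of the S part, 11 genes in GEMM and 3 in GL261 were lower in BMDM of all 3 tumours. Mitotic genes with every GEMM BMDM library below every GEMM MG library numbered 15, a direction without overlap that held for 19% of all genes. In GL261 they numbered 7, beside 15.5% of all genes.

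Tumour by tumour, the mitotic sum in BMDM was 0.888, 0.845 and 0.586 times that in MG of the GL261 tumours 80766, 80767 and 80769. For the GEMM tumours 68702, BB30101 and BB30105 it was 0.477, 0.671 and 0.794 times. The S sum ratios were 1.28, 1.11 and 0.633 in GL261 and 0.767, 0.825 and 1.02 in GEMM, so that the S part lay on both sides of equality and the mitotic part on one. The only GL261 S ratio below equality and the lowest GL261 mitotic ratio were both of tumour 80769. P2ry12 did not bear out the label of its MG library, as given above. Glioma markers stood in the same order as the mitotic sums, at 225 to 457 CPM in GL261 BMDM against 548 to 1080 in GL261 MG and at 18.9 to 133 CPM in GEMM BMDM against 194 to 287 in GEMM MG. Progenitor marker sums were also lower in BMDM, at 6.04 to 15 CPM in GL261 BMDM against 52.3 to 156 in GL261 MG and at 52.8 to 105 CPM in GEMM BMDM against 339 to 445 in GEMM MG, while their defining markers Elane and Mpo were at 2.89 CPM or less in these 12 libraries. Dendritic cell marker sums ran the other way, at 68.1 to 432 CPM in GL261 BMDM against 9.77 to 53.8 in GL261 MG and at 286 to 839 CPM in GEMM BMDM against 12.3 to 44.1 in GEMM MG. The part of these cells in the result was not tested.

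The S part genes called were few. Ccne2, cyclin E2, was at 3.51, 2.58 and 4.16 CPM in GEMM BMDM and 10.9, 6.99 and 12.8 CPM in GEMM MG, a log2 fold change of -1.58 ± 0.37 (adjusted p = 0.00483) without the block and -1.57 ± 0.30 (adjusted p = 0.00793) with it. The block added Cdc6 (-0.85 ± 0.25, adjusted p = 0.0416) and Rrm2 (-0.85 ± 0.25, adjusted p = 0.0446). E2f1 was at 60.0, 51.1 and 45.6 CPM in GL261 BMDM and 34.5, 22.5 and 38.3 CPM in GL261 MG, with no overlap, and Mcm4 at 165.2, 109.0 and 70.7 CPM in GL261 BMDM and 73.8, 61.4 and 75.1 CPM in GL261 MG, with overlap. Their log2 fold changes were 0.72 ± 0.24 (adjusted p = 0.0458) and 0.71 ± 0.24 (adjusted p = 0.0476) without the block. With it they were 0.74 ± 0.19 (adjusted p = 0.0315) for E2f1 and 0.64 (adjusted p = 0.0787) for Mcm4. Leaving out 1 library of GL261 MG (80766, 80767 or 80769) or of GL261 BMDM (80766 or 80767) left 0 or 1 of these calls, and leaving out GEMM BMDM of tumour BB30105 gave 2 S part and 2 mitotic calls in GEMM. No member was called in the test of whether the BMDM to MG difference itself differed between the models (1 S part and 0 mitotic genes at an unadjusted p under 0.05, and 1.63% of all genes called).

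**Figure D5:**
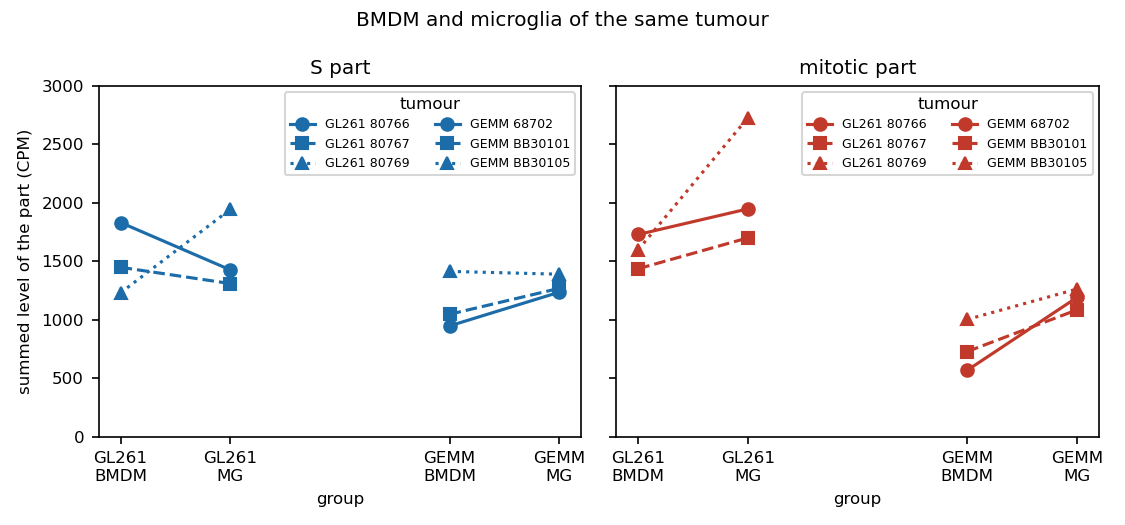
Summed level in CPM of the S part (left) and the mitotic part (right) in BMDM and MG, with a line joining the 2 libraries of each tumour. The mitotic lines run higher in MG in all 6 tumours, whereas the S lines run in both directions.

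Tumours of GL261 were set against the GEMM within each cell type, where the model and anything else that differed between the 2 sets of mice cannot be told apart. In GL261 MG against GEMM MG 7 S part and 8 mitotic genes were higher and none lower, beside 18.8% of all genes higher and 15.5% lower. In GL261 BMDM against GEMM BMDM 4 and 10 were higher and none lower, beside 10.2% higher and 9.46% lower. Median log2 fold changes were 0.25 for the S part and 0.89 for the mitotic part in MG, and 0.59 and 1.05 in BMDM. All 25 mitotic genes had a positive value in both cell types, and 20 in each had no overlap, against 24.8% (MG) and 18.1% (BMDM) of all genes without overlap in that direction.

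Cdc20 differed most in both cell types. It was at 85.6, 106.5 and 135.6 CPM in GL261 BMDM and 16.9, 27.6 and 29.4 CPM in GEMM BMDM, a log2 fold change of 2.15 ± 0.51 (adjusted p = 0.0069). In GL261 MG it was at 127.2, 119.1 and 225.5 CPM and in GEMM MG at 32.6, 35.1 and 41.2 CPM, a log2 fold change of 2.12 ± 0.51 (adjusted p = 0.00402). Aurka, Aurkb, Cenpa, Cenpf, Kif20a, Foxm1 and Prc1 were called in both cell types as well, and Bub1 and Hmmr in BMDM. Cenpa, the histone variant that marks centromeres, was at 55.8, 64.8 and 83.5 CPM in GL261 BMDM against 27.0, 40.0 and 31.4 CPM in GEMM BMDM, and at 79.9, 65.0 and 119.3 CPM in GL261 MG against 39.0, 43.8 and 34.1 CPM in GEMM MG. Its log2 fold changes were 1.05 ± 0.26 (adjusted p = 0.0091) and 1.18 ± 0.26 (adjusted p = 0.00233). By contrast, Mki67 (0.51 ± 0.30 in BMDM and 0.31 ± 0.30 in MG) and Ccnb2 (0.29 ± 0.66 and 0.19 ± 0.66) were not called.

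Of the S part, Cdc6, Cdt1 and Pola1 were called in both cell types. Cdc6 was at 24.0, 22.3 and 18.6 CPM in GL261 BMDM against 6.80, 4.89 and 8.83 CPM in GEMM BMDM, and at 19.5, 26.1 and 28.0 CPM in GL261 MG against 11.8, 12.9 and 11.2 CPM in GEMM MG. The groups did not overlap in either pair, and the log2 fold changes were 1.66 ± 0.32 (adjusted p = 0.00167) and 1.03 ± 0.32 (adjusted p = 0.0173). Pola1, a catalytic subunit of DNA polymerase alpha, was higher by 0.85 ± 0.29 (adjusted p = 0.0494) in BMDM and 1.53 ± 0.30 (adjusted p = 0.000824) in MG. E2f1 was called in BMDM (0.80 ± 0.24, adjusted p = 0.0251), and Cdc45, Mcm7, Pole and Prim1 in MG. The helicase subunit Mcm3 (0.16 ± 0.19 in BMDM and -0.18 ± 0.19 in MG) and the subunit Rrm2 (0.68 ± 0.55 and -0.00 ± 0.55) were not called.

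These counts moved with single libraries. In MG they came to 4 S part genes without GEMM MG of tumour 68702 or BB30105 or without GL261 MG of tumour 80769, and 2, 3, 4 and 2 mitotic genes without GEMM MG of 68702, BB30101 and BB30105 and GL261 MG of 80769. Of the 4 S part calls without GL261 MG of 80769, 1 was Pcna, lower in GL261 (-0.52, adjusted p = 0.0433). In BMDM they were 2 S part genes without GEMM BMDM of 68702 or BB30101 or GL261 BMDM of 80766 or 80767, and 9 without GEMM BMDM of BB30105. Mitotic calls in BMDM were 3, 4, 5 and 6 without GEMM BMDM of 68702 and BB30101 and GL261 BMDM of 80766 and 80767. Glioma marker sums were higher in GL261 MG than in GEMM MG and higher in GL261 BMDM than in GEMM BMDM, and their part in the result was not tested. Not every marker of that list had this order. Pdgfra was at 7.83 to 20.3 CPM in GL261 MG and 37.6 to 49.3 CPM in GEMM MG. In BMDM it was at 3.83 to 8.76 CPM in GL261 and 1.97 to 22.6 CPM in GEMM.

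Other genes of the same pathways came from lists that do not hold the members. Of 44 further S phase genes 38 were higher and 1 lower in GL261 MG against normal MG, with a median log2 fold change of 2.07, and 31 were higher and 1 lower in GEMM MG (median 1.43). They included Gmnn, the inhibitor of Cdt1 (3.60 ± 0.25 in GL261 MG and 2.92 ± 0.24 in GEMM MG), and the replication factor Mcm10 (5.80 ± 0.48 and 4.80 ± 0.46). Of 48 further mitotic genes 47 were higher in GL261 MG (median 4.19) and 44 in GEMM MG (median 3.69), none lower. Beside these, 30.6% of all genes were higher and 27.2% lower in GL261 MG, and 23% and 20.9% in GEMM MG. Racgap1, a partner of Kif23 at the central spindle, was higher by 4.19 ± 0.25 and 3.84 ± 0.25, and the actin-binding Anln by 5.84 ± 0.42 and 4.12 ± 0.39. Against monocytes, 41 further S phase and 45 further mitotic genes were higher in GL261 BMDM (medians 1.90 and 2.69). For GEMM BMDM the numbers were 35 and 40 (medians 1.27 and 1.85). Calls in the other direction numbered 1 further mitotic gene for GL261 BMDM, and 1 gene of each list for GEMM BMDM. The shares over all genes tested came to 34.1% (higher) and 28.9% (lower) for GL261 BMDM, with 31.6% and 25.7% for GEMM BMDM. In GL261 BMDM against GL261 MG 1 further S phase gene was lower, beside 6.81% of all genes, and no further mitotic gene was called. In GEMM BMDM against GEMM MG 2 further S phase genes were higher, beside 12.7% of all genes, and 2 mitotic genes were lower, beside 8.1%: Espl1, the separase that splits sister chromatids (-1.03 ± 0.23, adjusted p = 0.00385), and Fbxo5 (-0.92 ± 0.30, adjusted p = 0.037). For GL261 MG against GEMM MG, 20 further S phase and 14 further mitotic genes were higher, beside 18.8% of all genes. Their medians were 0.68 and 0.70, where the S and mitotic parts had 0.25 and 0.89. For GL261 BMDM against GEMM BMDM, 10 and 13 were higher (medians 0.56 and 0.85), beside 10.2%. None was lower in either cell type.

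The 32 regulators and inhibitors of G1 did not move as one. Against normal MG 17 were higher and 5 lower in GL261 MG, and 13 were higher and 3 lower in GEMM MG. Of all genes, 30.6% were higher and 27.2% lower in GL261 MG, and 23% and 20.9% in GEMM MG. Cdkn1c, an inhibitor of cyclin-dependent kinases, was at 1.38 ± 0.157 CPM in GEMM MG and 16.4 ± 1.51 CPM in normal MG, a log2 fold change of -3.55 ± 0.42 (adjusted p = 3.61e-06). Cdk4, a kinase of G1, was at 248.3 ± 63.2 CPM in GL261 MG, 156.1 ± 9.03 CPM in GEMM MG and 68.6 ± 3.43 CPM in normal MG, with log2 fold changes of 1.86 ± 0.16 and 1.19 ± 0.16. Mybl2, which encodes B-Myb, was higher by 5.42 ± 0.52 and 3.70 ± 0.50. Cdkn2a was at 2.23 to 8.53 CPM in GL261 MG, 1.11 to 1.28 CPM in GEMM MG and 0 to 0.0392 CPM in normal MG. Against monocytes 16 were higher and 6 lower in GL261 BMDM, and 18 higher and 6 lower in GEMM BMDM, beside 34.1% higher and 28.9% lower of all genes in GL261 BMDM, and 31.6% and 25.7% in GEMM BMDM. The inhibitor gene Cdkn1a, which encodes p21, was at 651.4 ± 96.4 CPM in GL261 BMDM, 320.0 ± 120 CPM in GEMM BMDM and 36.4 ± 10.4 CPM in monocytes, higher by 4.17 ± 0.32 and 3.14 ± 0.31 while the S part was higher as well. E2f2 ran the other way, at 10.8 ± 2.95 CPM in GL261 BMDM, 13.7 ± 3.57 CPM in GEMM BMDM and 135.1 ± 6.71 CPM in monocytes, a log2 fold change of -3.64 ± 0.25 and -3.31 ± 0.25.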

How the data were processed

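The authors' deposited table holds raw counts per gene symbol for all 20 libraries, whole numbers whose totals differ between libraries. Named without roles in the submitters' processing notes are STAR 2.5.0e, HTSeq, DESeq2, CASAVA 1.8 and the build mm10. Neither the annotation nor the strand setting is stated there or in the labels. Per the labels' protocols, libraries were made with a Smart-Seq kit from sorted cells.

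Groups and tumour numbers came from the titles. Counts were filtered (filterByExpr, minimum count 10, minimum total 15), TMM-scaled and fitted over all libraries with edgeR 4.0.16 in R 4.3.3 (robust quasi-likelihood test, Benjamini-Hochberg over all genes tested). Nothing says that libraries of a group come from separate animals beyond their title numbers, so p-values may measure only the spread between these samples. No libraries agreed within sampling noise, but some monocyte libraries came near it. The chi-square per degree of freedom between counts was 3.198 for 64818 and 64819 and 4.282 for 64820 and 64821. All other pairs within a group were at 19.03 or above. Comparisons with monocytes may therefore rest on fewer independent samples than libraries, which was not tested. The members and gene lists were chosen with earlier results of these data known. Any member may be named, and of each further list up to 6 called genes per comparison with the smallest adjusted p. Same-numbered MG and BMDM deviated together from their group means (r = 0.316, 0.222 and 0.196 in GEMM, 0.393, 0.219 and 0.393 in GL261, across genes), so the numbers were taken to pair them. A fit of the tumour libraries alone, blocked on that number, served as an alternative. Other alternatives were DESeq2 1.42.0, its size factors in edgeR, no filter, only the groups compared, and leaving out each library. The scripts were tested on simulated counts. Sequences are from RefSeq promoter tables (GRCm38.p6), where 33 of 45 member windows matched the sense strand of a transcript.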

Additional observations from a re-analysis of the deposited data

Results flagged for a closer look

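Among the 53 sets of 5 monocyte values examined for a library far from the others (the 50 members and 3 summed levels), 1 stood out. Pole, the catalytic subunit of DNA polymerase epsilon, was at 1.256 CPM in monocyte library 64817, below 2.627 to 3.095 CPM in the other 4, a gap of 0.746 of the whole range. Chance flags about 1 in 20 such sets. Groups of 3 libraries were not examined in this way. No member was called in the test of whether the BMDM to MG difference differed between the models.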

How the results depend on the processing

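No alternative reversed a call. For BMDM against MG in GEMM (1 S part and 0 mitotic genes called), DESeq2 gave 2 S part genes, a fit of only the groups compared gave 4 and 6, and the replicate block 3 and 14. Over all genes, these fits called 1988 higher and 1918 lower, 1647 and 1174, and 2160 and 1457. In GL261 (2 and 0), the size factors of DESeq2, no filter and a fit of only the groups compared each gave 0 S part genes, and the replicate block gave 1 and 3. Calls over all genes were 1477 higher and 1196 lower, 1198 and 944, 567 and 210, and 1933 and 1196 in that order. For GL261 MG against GEMM MG, where 8 mitotic genes were called, no filter gave 5 and a fit of only the groups compared 15. Among all genes, no filter called 2541 higher and 2217 lower, and only the groups compared 2152 and 1752. For GL261 BMDM against GEMM BMDM, DESeq2 gave 8 S part genes in place of 4 and no filter 6 mitotic genes in place of 10. There DESeq2 called 2029 of all genes higher and 1727 lower, and no filter 1269 and 1431. The mitotic median in GEMM MG against normal MG was 4.08 without Mki67, Top2a and Ccna2, and 4.39 with them. Over all comparisons, and with the changes above included, members' calls changed per setting as follows: 7 gained with DESeq2, 2 gained and 3 lost with its size factors, 1 gained and 12 lost without a filter, 23 gained and 8 lost with only the groups compared, and 19 gained and 1 lost under the block.

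Leaving out 1 library at a time, S part calls ranged over 24 to 25 (GL261 MG against normal MG), 25 to 25 (GEMM MG against normal MG), 25 to 25 (GL261 BMDM against monocytes), 21 to 23 (GEMM BMDM against monocytes), 0 to 2 (GL261 BMDM against MG), 1 to 2 (GEMM BMDM against MG), 4 to 7 (GL261 against GEMM MG) and 2 to 9 (GL261 against GEMM BMDM). Mitotic calls ranged, in the same order, over 25 to 25, 25 to 25, 23 to 24, 22 to 24, 0 to 0, 0 to 2, 2 to 7 and 3 to 10. No member was called in the difference between the models under these fits. The causes of these changes were not tested. Depth limits the lowest members in monocytes most, where the mitotic medians rest on levels of a few CPM. A member that was not called is not shown to be unchanged.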
